A study of Homo sapiens with 6 samples.

Results

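The BCL2 family decides whether a cell keeps or loses the integrity of its mitochondrial outer membrane, the commitment step of intrinsic apoptosis. Here 10 of its genes were followed in 67R cells after knockdown of BCAT1, out of 60664 genes in the deposited table. They were chosen by gene name and by role. The pro-survival members were BCL2, BCL2L1 (encoding BCL-XL) and MCL1. BAX and BAK1 were the effectors, and BCL2L11 (BIM), BBC3 (PUMA), PMAIP1 (NOXA), BID and BAD were the BH3-only members. Each name matched 1 row of the table, and all 10 genes passed the expression filter (at least 1 TPM when averaged over all 6 libraries).

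67R is a line of NCI-H1975, an EGFR-mutant human lung adenocarcinoma line, selected for growth under increasing doses of ASK120067, an inhibitor of EGFR. The cells received either a negative control siRNA (siNC, labelled NC, 3 libraries) or siRNA against BCAT1 (siBCAT1, 3 libraries), so the control cells carry the acquired resistance as well. BCAT1 is the cytosolic transaminase that exchanges the amino group between branched-chain amino acids and α-ketoglutarate. The labels do not name the BCAT1 siRNA, and in the study's methods the name siBCAT1 stands for siBCAT1-2. The labels also do not give the time after transfection, whether drug was present, or whether the libraries came from separate cultures, so the p-values measure the spread between these libraries, which may be technical. 67R is a single resistant line, and its parental line was not analysed here.

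As background, BAX and BAK1 form pores in the outer membrane and let cytochrome c escape, which activates the caspases. BCL2, BCL-XL and MCL1 hold the effectors and the BH3-only proteins in check by binding their BH3 domains. BIM, PUMA and truncated BID bind all pro-survival proteins, whereas NOXA prefers MCL1, and BAD prefers BCL2 and BCL-XL. In EGFR-mutant lung cancer cells BIM is known as a mediator of cell death after EGFR inhibition. Much control of the family lies in protein turnover, phosphorylation, cleavage and splicing, none of which a TPM value per gene shows.

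The values are in TPM, a transcript abundance scaled to gene length and to the library total, so the levels of different genes can be compared. The libraries summed to between 992512 and 995593 TPM, and 23152 to 25043 genes per library had a value above 0. TPM values carry no read counts, so the depth is unknown and no counting error can be given. BCAT1 fell from 38.2 ± 7.33 to 7.96 ± 0.841 TPM (SD, n = 3 each). Of the 8 epithelial markers, 7 were tested and 5 of these were called lower by limma, against 10.4% of all genes tested. The summed level of these 8 markers ranged from 2564 to 2969 TPM in siNC against 1664 to 1952 TPM after knockdown. KRT8 and KRT7 made up most of it. CDH1 (E-cadherin) went from 19.7 to 3.10 TPM and KRT19 from 91.3 to 33.9 TPM in the means, both called lower. EPCAM stood at 1.27 against 2.33 TPM and EGFR at 20.5 against 15.2 TPM. Neither EPCAM nor EGFR overlapped between the groups, and neither passed. The lung marker NKX2-1 was listed at 0 in every siNC library. Of 8 markers of leukocytes, endothelium and fibroblasts, 6 were under 1 TPM in every library, with CD3E and DCN at 0 in all 6. CD68, a macrophage marker that other cells also express, rose from 33.3 to 54.9 TPM and the fibroblast marker COL1A1 fell from 15.8 to 9.41 TPM in the means, so the pair moved in opposite directions. The summed level of the 8 ranged from 41.4 to 55.0 TPM in siNC against 61.8 to 69.4 TPM after knockdown. The part of these shifts in the results below was not tested. In such bulk samples, fewer cells that express a gene and less of its RNA per cell cannot be told apart.

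Of the 10 members, BCL2L1 and PMAIP1 rose and BID and BAD fell after BCAT1 knockdown, with an adjusted p under 0.05 from limma over all 14286 genes tested. The other 6 members did not pass. Among all genes tested, 27.1% passed in either direction, 16.7% higher and 10.4% lower. The median log2 difference (siBCAT1 minus siNC, on the scale of log2(TPM + 1), which understates the change of weakly expressed genes) was 0.06 for the members and 0.04 for all genes tested, and the median of its size regardless of sign was 0.38 for the members and 0.24 for all genes. The 3 libraries of one group did not overlap those of the other for 7 of the 10 members, 4 of them higher and 3 lower, against 44.1% of all genes tested (26.1% higher and 18.0% lower). At an unadjusted p under 0.05 from limma, 5 members passed, against 39.7% of all genes. An exact two-sided permutation test of 3 libraries against 3 has 0.1 as its smallest p, which each of these 7 genes reached.

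**Figure D1:**
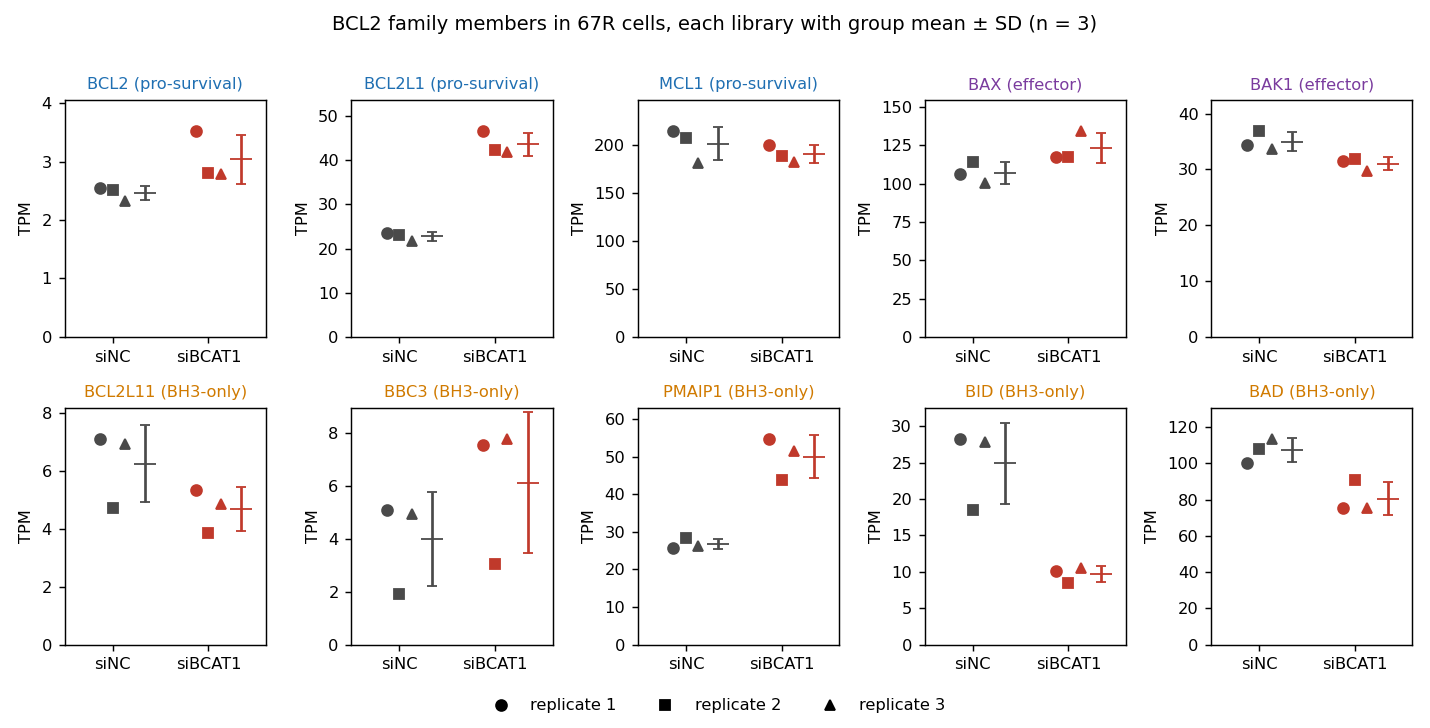
Level of each of the 10 members in TPM (vertical axes from 0, each with its own scale) in the 3 siNC (grey) and 3 siBCAT1 (red) libraries, with replicate numbers as symbols and the group mean ± SD (n = 3) at the right of each group. The siBCAT1 libraries all lie above the siNC libraries for BCL2L1 and PMAIP1 and all below them for BID and BAD, and replicate 2 is the lowest of both groups for BCL2L11, BBC3 and BID.

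BCL2L1 was the pro-survival member that changed. It stood at 23.6, 23.2 and 21.6 TPM in the siNC libraries (here and below in the order of replicates 1, 2 and 3) against 46.6, 42.3 and 41.9 TPM in the siBCAT1 libraries. Every siBCAT1 library lay far above every siNC library, and the spread within each group was small. The mean rose 1.91-fold after knockdown, from 22.8 ± 1.05 to 43.6 ± 2.60 TPM (SD, n = 3 per group). The log2 difference was 0.90 (standard error 0.08, adjusted p = 0.000456 from limma), and 6.64% of all genes tested had a difference at least as large. BCL2L1 (ENSG00000171552; chr20:31664452-31723989 in GRCh38, minus strand) has 9 annotated transcripts in GENCODE 29. The antisense genes AL117381.1 and ABALON that overlap it were at or under 0.04 TPM. Splicing gives rise to the long anti-apoptotic BCL-XL and the short pro-apoptotic BCL-XS, and the value per gene adds them together.

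MCL1, a short-lived protein that holds BAK1 and BIM, was the most abundant member. Its siNC libraries held 213.9, 206.9 and 181.2 TPM, its siBCAT1 libraries 199.97, 188.4 and 181.6 TPM. The groups overlapped. Its log2 difference was -0.08, with a 95% confidence interval of -0.25 to 0.10 (adjusted p = 0.496 from limma). BCL2, the founding member, was the lowest of the 10, with 2.54, 2.52 and 2.33 TPM in siNC against 3.52, 2.81 and 2.78 TPM in siBCAT1 cells. Every siBCAT1 library was above the siNC libraries, yet the log2 difference of 0.22 had an interval of -0.13 to 0.57 (adjusted p = 0.326 from limma).

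Neither effector passed the test. BAX measured 106.6, 114.1 and 100.3 TPM in siNC against 117.7, 117.3 and 134.3 TPM in siBCAT1 cells. BAK1 measured 34.3, 36.9 and 33.7 TPM against 31.5, 31.9 and 29.7 TPM. The groups did not overlap for either gene, with BAX higher and BAK1 lower by narrow margins in siBCAT1 cells. The log2 difference was 0.20 for BAX (interval 0.02 to 0.38, adjusted p = 0.102 from limma). For BAK1 it was -0.17 (interval -0.34 to 0.00, adjusted p = 0.1295 from limma), and under quantile normalization it was -0.25, which passed the threshold (adjusted p = 0.0353 from limma; range over the alternatives 0.0353 to 0.268). The annotation lists the processed pseudogenes BAK1P1 and BAK1P2, each under 1 TPM in all 6 libraries.

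Among the BH3-only members PMAIP1 rose. NOXA, its product, binds MCL1 and promotes its degradation. Its siNC libraries held 25.6, 28.3 and 26.4 TPM of PMAIP1, the siBCAT1 libraries 54.8, 43.7 and 51.6 TPM. The lowest siBCAT1 library stood well above the highest siNC library. The mean went up 1.87-fold, with 26.8 ± 1.40 TPM before and 50.1 ± 5.72 TPM after knockdown (SD, n = 3 each), and the log2 difference was 0.87 (standard error 0.10, adjusted p = 0.00124 from limma). The share of tested genes with a difference at least as large was 7.15%. PMAIP1 (ENSG00000141682) spans chr18:59899948-59904306 on the plus strand.

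BID showed the largest change of the 10 members. Its product is cleaved by caspase-8 and carries the death-receptor signal to the mitochondria. BID measured 28.3, 18.5 and 27.9 TPM in siNC against 10.1, 8.49 and 10.6 TPM in siBCAT1 cells. The siNC libraries were spread, with replicate 2 the lowest, and all 3 still lay above every siBCAT1 library. The mean was 2.56-fold lower in siBCAT1 cells, at 9.72 ± 1.09 against 24.9 ± 5.54 TPM (SD, n = 3 each), with a log2 difference of -1.25 (standard error 0.17, adjusted p = 0.00266 from limma). Of all genes tested, 2.93% had a difference at least as large. BID (ENSG00000015475) spans chr22:17734138-17774770 on the minus strand, with 15 annotated transcripts.

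BAD, whose product is kept inactive by growth-factor signaling through phosphorylation, fell less. It measured 100.4, 107.7 and 113.5 TPM in siNC against 75.4, 90.8 and 75.2 TPM in siBCAT1 cells. The groups did not overlap, though siBCAT1 replicate 2 came close to the siNC libraries. The mean was 1.33-fold lower, at 80.4 ± 8.98 against 107.2 ± 6.58 TPM (SD, n = 3 each), with a log2 difference of -0.41 (standard error 0.09, adjusted p = 0.0160 from limma). This call was lost without siNC replicate 3 (-0.37, adjusted p = 0.0634 from limma), without siBCAT1 replicate 1 (-0.37, adjusted p = 0.0644) and without siBCAT1 replicate 3 (-0.37, adjusted p = 0.0611). GPR137, which overlaps BAD on the opposite strand, ranged from 35.5 to 43.5 TPM in siNC against 31.5 to 35.6 TPM after knockdown, and whether the counting used strand is not given in the sources used here.

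BCL2L11 and BBC3 were weakly expressed and varied between libraries. BCL2L11, which encodes BIM, measured 7.11, 4.73 and 6.92 TPM in siNC against 5.33, 3.85 and 4.87 TPM in siBCAT1 cells. BBC3, which encodes PUMA, measured 5.11, 1.93 and 4.96 TPM against 7.56, 3.06 and 7.80 TPM. The groups overlapped for both, and replicate 2 was the lowest library of both groups. The log2 difference was -0.34 for BCL2L11 (interval -0.76 to 0.08, adjusted p = 0.199 from limma). For BBC3 it was 0.51 (interval -0.41 to 1.42, adjusted p = 0.374 from limma). With the replicate number as a block BBC3 passed (adjusted p = 0.0227 from limma), though the numbers could not be shown to pair the libraries. MIR4435-2HG, a long noncoding RNA that overlaps BCL2L11 on the opposite strand, was far more abundant than BCL2L11, with 137.0 to 153.2 TPM in siNC against 114.6 to 127.8 TPM in siBCAT1 cells, and it fell (log2 difference -0.28, adjusted p = 0.0237 from limma). The overlap is one of gene spans, and whether their exons share sequence was not examined. Without counting by strand, only reads from a stretch shared by both genes could not be told apart.

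**Figure D2:**
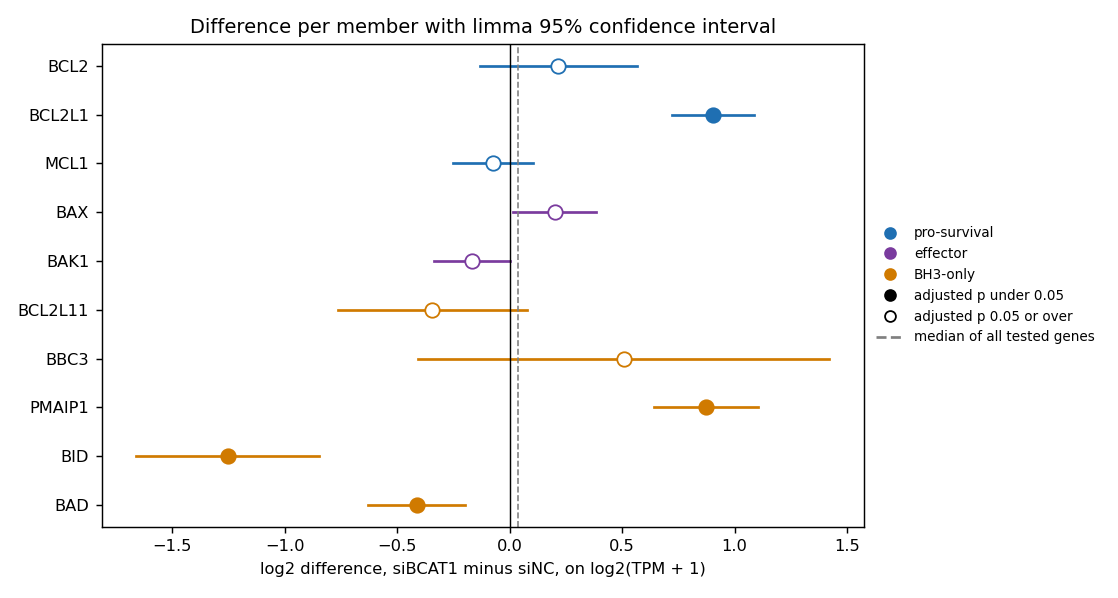
Log2 difference between siBCAT1 and siNC cells for each member on the scale of log2(TPM + 1) (horizontal axis), with limma's 95% confidence interval (lines), coloured by role; filled points passed an adjusted p of 0.05 and the dashed line is the median of all tested genes, 0.04. BCL2L1 (0.90) and PMAIP1 (0.87) stand to the right, BID (-1.25) and BAD (-0.41) to the left, and BBC3 has the widest interval.

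The levels of the members spanned a wide range. In siNC cells the order was MCL1 (200.7 TPM), BAD (107.2), BAX (107.0), BAK1 (34.96), PMAIP1 (26.8), BID (24.9), BCL2L1 (22.8), BCL2L11 (6.25), BBC3 (4.0) and BCL2 (2.46), as means of 3 libraries. The library ranges of BAD and BAX overlapped, as did those of PMAIP1 and BID, of BID and BCL2L1, of BCL2L11 and BBC3, and of BBC3 and BCL2. In siBCAT1 cells the order was MCL1 (190.0 TPM), BAX (123.1), BAD (80.4), PMAIP1 (50.1), BCL2L1 (43.6), BAK1 (31.0), BID (9.72), BBC3 (6.14), BCL2L11 (4.68) and BCL2 (3.04). There only the ranges of PMAIP1 and BCL2L1, and of BBC3 and BCL2L11, overlapped between neighbours. By these means PMAIP1 and BCL2L1 moved above BAK1, and BID moved below BCL2L1.

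In proportion, the sums by role moved less than the members that passed. The 3 pro-survival genes together made 225.9 ± 18.4 TPM in siNC against 236.6 ± 12.2 TPM in siBCAT1 cells, and the effectors 142.0 ± 8.57 against 154.1 ± 8.53 TPM (SD, n = 3 each). The 5 BH3-only genes summed to 166.5, 161.2 and 179.7 TPM in siNC against 153.2, 149.9 and 150.0 TPM in siBCAT1 cells, so their groups did not overlap. BAD was the most abundant BH3-only gene in every library. MCL1 made up 37.3% ± 2.15 of the summed TPM of the 10 members in siNC and 35.1% ± 1.32 in siBCAT1 cells, and BCL2L1 4.25% ± 0.0733 and 8.04% ± 0.349 (SD, n = 3 each). These sums and shares are descriptions and were not tested.

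Ratios within a library do not depend on how the libraries were scaled. BCL2L1 over MCL1 was 0.110, 0.112 and 0.119 in siNC against 0.233, 0.224 and 0.231 in siBCAT1 cells, so BCL2L1 gained on MCL1 in each siBCAT1 library. PMAIP1 over MCL1 went from 0.134 ± 0.0131 to 0.264 ± 0.0278 (SD, n = 3 each). PMAIP1 over BCL2L1, by contrast, was 1.18 ± 0.0786 in siNC and 1.148 ± 0.102 in siBCAT1 cells, and these groups overlapped. BID over BAX went from 0.235 ± 0.0636 to 0.0790 ± 0.00688, and BAX over BAK1 from 3.06 ± 0.0710 to 3.98 ± 0.473 (SD, n = 3 each), neither with any overlap. The ratio of BAD to BCL2L1, its preferred partner together with BCL2, was 4.72 ± 0.504 in siNC and 1.85 ± 0.270 in siBCAT1 cells. A ratio shows that the genes changed unequally and not which of them changed.

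**Figure D3:**
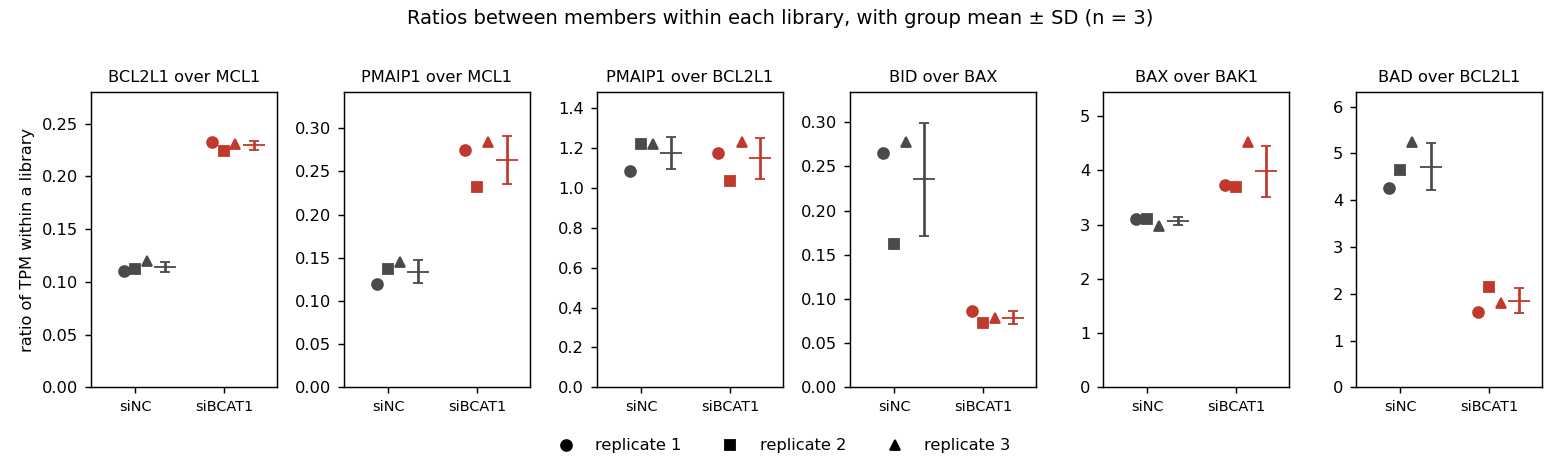
Ratio of the TPM values of pairs of members within each library (vertical axes from 0, each with its own scale) in siNC (grey) and siBCAT1 (red) cells, with replicate numbers as symbols and the group mean ± SD (n = 3) beside them. BCL2L1 over MCL1 goes from 0.114 to 0.229 and BID over BAX from 0.235 to 0.0790 in the means, while PMAIP1 over BCL2L1 overlaps between the groups.

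The promoter windows of the 3 members that changed most (BCL2L1, PMAIP1 and BID) are printed to show the sequence around their start sites. They run from 250 bases before to 50 bases after the start, on the gene's strand, from RefSeq (GRCh38.p14). Capitals mark matches on either strand to the cyclic AMP response element core TGACG, which ATF and CREB factors bind, and to ACGTG, the core of the hypoxia response element. A match on the other strand shows as the reverse complement of the core, as in PMAIP1. Both motifs were chosen after the values were seen. The lists below hold ATF4 and DDIT3, and BNIP3 is a hypoxia-inducible gene.
PMAIP1, chr18:59899746-59900045, plus strand: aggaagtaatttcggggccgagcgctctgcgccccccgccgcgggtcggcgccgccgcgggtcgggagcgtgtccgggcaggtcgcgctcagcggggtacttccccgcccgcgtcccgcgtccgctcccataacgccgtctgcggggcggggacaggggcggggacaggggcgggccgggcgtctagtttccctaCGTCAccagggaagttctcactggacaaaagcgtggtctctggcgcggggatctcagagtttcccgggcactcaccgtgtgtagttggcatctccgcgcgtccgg
BCL2L1, chr20:31723914-31724213, minus strand: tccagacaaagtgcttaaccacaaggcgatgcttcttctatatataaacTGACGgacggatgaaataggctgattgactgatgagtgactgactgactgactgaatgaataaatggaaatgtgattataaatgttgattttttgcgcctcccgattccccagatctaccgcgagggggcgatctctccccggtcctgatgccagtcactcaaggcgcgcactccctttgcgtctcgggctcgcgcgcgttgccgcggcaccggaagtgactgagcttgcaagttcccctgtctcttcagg
BID, chr22:17773934-17774233, minus strand: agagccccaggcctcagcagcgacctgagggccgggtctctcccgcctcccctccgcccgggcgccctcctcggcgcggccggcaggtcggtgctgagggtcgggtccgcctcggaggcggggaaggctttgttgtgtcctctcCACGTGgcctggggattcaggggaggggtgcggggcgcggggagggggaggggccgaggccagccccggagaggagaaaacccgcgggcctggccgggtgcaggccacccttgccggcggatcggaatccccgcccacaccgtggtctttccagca

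PMAIP1 has a TGACG match whose leftmost base is 55 bases before the start site (-55), and the BCL2L1 window printed has one at -201, while the other of its 2 windows has none. Of the 5 windows of BID, 2 overlap each other and hold CACGTG, which contains ACGTG on both strands (from -106 in the window printed), and none holds TGACG. For 9 of the 10 members a window was matched by symbol, MCL1 being the exception, 15 windows in all. TGACG was found in 6 of the 15, those of BCL2, BCL2L1, BAX, PMAIP1 and both of BAD, against 24.6% of 35116 windows of all genes. The windows of BAD overlap each other and hold the same TGACG site, which is thus counted in both. ACGTG was found in 4, those of BAX, BBC3 and 2 of BID, against 21.4%. These 2 windows of BID hold the same CACGTG site, which is likewise counted in both. The remaining windows of BID also overlap one another. In BAX both motifs overlap within one stretch. The combined ATF4 and C/EBP element TGATGNAA was in none of the 15 and in 3.62% of all windows. The E2F site forms TTTGGCGC and TTTCCCGC were also searched. Neither was in any of the 15, against 0.652% and 1.63% of all windows. Members that rose (BCL2L1, PMAIP1), fell (BAD) or did not pass (BCL2, BAX) thus all held TGACG. A match is a description of letters and no evidence of binding.

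Other genes of the family were read from a fixed list of 13. Of these, 8 were tested, 2 rose, 3 fell and 3 did not pass (median log2 difference 0.02). Among all genes tested, 16.7% rose and 10.4% fell, 27.1% in either direction. BMF, a BH3-only gene, measured 6.88, 2.88 and 5.95 TPM in siNC against 1.24, 0.900 and 0.770 TPM in siBCAT1 cells, without overlap (log2 difference -1.61, adjusted p = 0.00673 from limma). BNIP3, a hypoxia-inducible mitophagy receptor, fell from 190.4 ± 14.4 to 89.6 ± 5.13 TPM (SD, n = 3 each; log2 difference -1.08, adjusted p = 0.000265 from limma). Its relative BNIP3L was at 67.1 ± 9.17 and 46.9 ± 6.60 TPM (log2 difference -0.51, adjusted p = 0.0291 from limma), a call lost under 5 of 14 alternatives (highest adjusted p 0.108). BCL2L13, also a mitophagy receptor, rose from 22.0 ± 1.79 to 37.2 ± 2.81 TPM, and the effector-like BOK from 28.2 ± 1.71 to 36.9 ± 1.78 TPM (SD, n = 3 each), by log2 differences of 0.73 and 0.38. BCL2A1, BCL2L10, BIK, BCL2L14 and BCL2L15 had a mean under 1 TPM and were not tested. BCL2L10 still stood at 0.14, 0.24 and 0.47 TPM in siNC against 1.05, 1.18 and 1.19 TPM in siBCAT1 cells, without overlap. With no expression filter, 3 genes of this list were higher and 2 lower by limma.

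Downstream of the pore, all 9 genes of the apoptosome, caspase and mitochondrial list were tested. Of these, 3 rose, 1 fell and 5 did not pass (median log2 difference -0.13), while 27.1% of all genes tested passed. CASP2, an initiator caspase, fell from 16.3 ± 2.08 to 8.81 ± 0.633 TPM (SD, n = 3 each; log2 difference -0.81). CYCS, which encodes cytochrome c, rose from 70.8 ± 4.64 to 101.1 ± 3.35 TPM (log2 difference 0.51), and HTRA2 (0.48) and AIFM1 (0.26), whose products also leave mitochondria, rose as well. APAF1 and CASP9, which with cytochrome c build the apoptosome, had log2 differences of -0.13 and -0.22 and did not pass (adjusted p = 0.558 and 0.339 from limma).

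**Figure D4:**
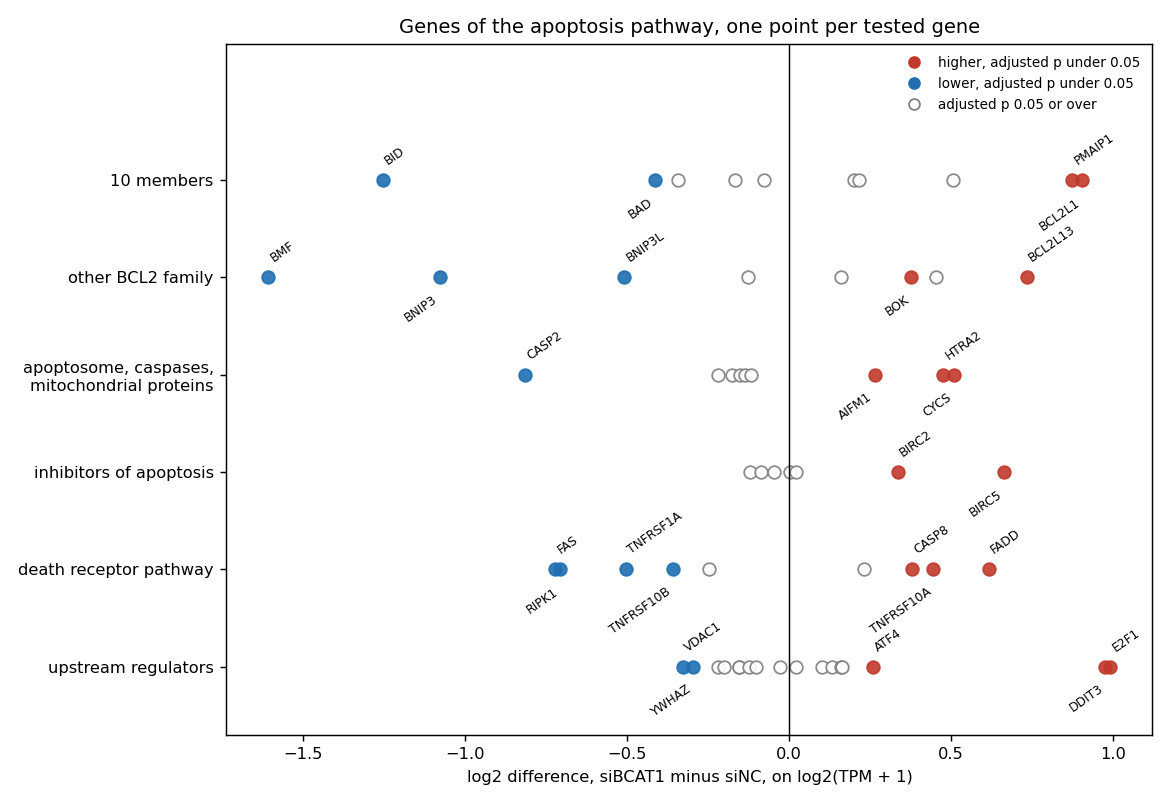
Log2 difference between siBCAT1 and siNC cells on the scale of log2(TPM + 1) (horizontal axis) for each tested gene of the 10 members and of the lists around them (rows), red where higher and blue where lower with an adjusted p under 0.05, open otherwise. E2F1 (0.99) lies farthest to the right and BMF (-1.61) farthest to the left, and every list except the inhibitors of apoptosis holds calls in both directions.

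Of the 7 inhibitors of apoptosis, 2 rose, 0 fell and 5 did not pass in limma's fit (median log2 difference 0.0045). This share of calls is near that of all genes tested, 27.1%. BIRC5, which encodes survivin and is also a mitosis gene, rose from 53.04 ± 5.36 to 84.4 ± 2.87 TPM (log2 difference 0.66, adjusted p = 0.00190 from limma), and BIRC2, which encodes cIAP1, from 37.7 ± 1.66 to 47.9 ± 1.86 TPM (SD, n = 3 each; log2 difference 0.34). XIAP, the direct inhibitor of caspases, was at 16.5 ± 1.04 and 15.4 ± 0.627 TPM.

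The death receptor pathway feeds BID through caspase-8. Of its 12 listed genes, 9 were tested, 3 rose, 4 fell and 2 did not pass (median log2 difference -0.25). Among all genes tested, 27.1% passed in either direction. The adaptor FADD rose from 32.6 ± 1.57 to 50.6 ± 3.01 TPM (log2 difference 0.62, adjusted p = 0.00174 from limma), CASP8 from 23.0 ± 1.04 to 30.3 ± 3.28 TPM (0.38) and the receptor TNFRSF10A from 17.4 ± 3.24 to 23.9 ± 1.46 TPM (0.45). FAS (-0.72), RIPK1 (-0.71), TNFRSF1A (-0.50) and TNFRSF10B (-0.36) fell, with log2 differences in parentheses. The ligand genes FASLG, TNFSF10 and TNF had a mean under 1 TPM. These calls were fragile: without siNC replicate 1 or 3, or with no expression filter, 1 gene was higher and 0 were lower by limma's adjusted p, and leaving out any 1 of the other 4 libraries left 1 to 2 higher and 0 to 2 lower. FADD passed under all 14 alternatives.

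Of 18 genes that act upstream, 17 were tested, 3 rose, 2 fell and 12 did not pass (median log2 difference -0.03). Their share of calls is near that of all genes tested, 27.1%. DDIT3, which encodes the stress factor CHOP, rose from 11.8 ± 1.02 to 24.3 ± 2.58 TPM (log2 difference 0.98, adjusted p = 0.00119 from limma). ATF4, which acts on DDIT3 and PMAIP1 in the integrated stress response, was at 372.6 ± 23.0 and 446.5 ± 39.0 TPM (log2 difference 0.26, adjusted p = 0.0451 from limma), a call lost under 9 of 14 alternatives (range 0.0150 to 0.136). E2F1 rose from 22.7 ± 4.51 to 45.7 ± 3.72 TPM (log2 difference 0.99; SD, n = 3 each). VDAC1, an outer-membrane channel that binds BCL2 proteins (-0.33), and YWHAZ, a 14-3-3 protein that holds phosphorylated BAD (-0.30), fell. None of the 4 genes listed for MCL1 turnover, HUWE1, USP9X, FBXW7 and MARCHF5, passed, nor did FOXO3, a factor known to act on BCL2L11 (log2 difference -0.15, adjusted p = 0.323 from limma). Of these, only HUWE1 did not overlap between the groups, at 127.6 ± 3.64 and 143.2 ± 5.85 TPM (SD, n = 3 each). The log2 difference of HUWE1 was 0.17 (adjusted p = 0.0669 from limma).

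The genes whose profile over the 6 libraries was most like that of the most abundant member of each role were named by Pearson's r of log2(TPM + 1), as a description only. For MCL1 these were PCF11 (0.992), NNAT (0.991) and ZNF175 (0.991), for BAX SEMA7A (0.998), MED20 (0.990) and HSPA4L (0.989), and for BAD PCDHA7 (0.990), S100A13 (0.989) and SPART (0.988). With 6 libraries in 2 groups and 14286 genes searched, values this high are easily found.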

How the data were processed

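RNA-seq of 6 libraries of 67R cells was used, 3 siNC and 3 siBCAT1, grouped and numbered by their titles. The authors prepared stranded mRNA libraries and deposited TPM values per gene for each library separately, given to 2 decimals. The submitters' processing notes name fastp, HISAT2, StringTie and GRCh38, and versions and annotation release are not given in the sources used here. The unit was read from the values.

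On the log2(TPM + 1) scale, the 14286 of 60664 genes averaging 1 TPM or more were tested by a two-sided limma fit (lmFit and a trended eBayes; limma 3.58.1, R 4.3.3). P-values were adjusted by Benjamini-Hochberg over every tested gene, with a threshold of 0.05. The script was tested on simulated data. Members and gene lists were chosen with earlier results of these data known, so no p is given over a list. Some genes of the lists are not reported here and are outside their counts. All members were named, as were BCAT1, list genes past the threshold and the 3 genes most like the leading member of each role. List genes named although they did not pass (APAF1, CASP9, XIAP, FOXO3 and those of MCL1 turnover) were chosen after their values were seen. So were the overlapping genes, the markers and the promoter motifs. Alternatives were a pseudocount of 0.1, no filter, a mean of at least 5 TPM, median-ratio scaling, quantile normalization, a loess fit that removed GC content and length trends (span 0.5; GENCODE 29, GC content for 99.0% of genes tested), the replicate number as a block, each library left out, and, added after seeing the data, the block with the correction. Positions are from GENCODE 29 on GRCh38 and promoters from RefSeq. Python 3.11.15, numpy 2.4.6, pandas 2.3.3, scipy 1.17.1 and matplotlib 3.10.9 were used.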

Additional observations from a re-analysis of the deposited data

How the results depend on the processing

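BCL2L1, PMAIP1 and BID kept their direction and stayed past the threshold under all 14 alternatives run, with log2 differences of 0.83 to 0.93, 0.78 to 0.97 and -1.44 to -1.15, and so did BCAT1 (-2.28 to -2.03). No member changed direction. With no filter, 2567 genes passed, 960 of them lower, and in the death receptor pathway 1 was higher and 0 lower. With the GC content and length correction, alone or with the block, 2 genes of the apoptosome, caspase and mitochondrial list were lower, against 1. Leaving out each library in turn gave 2318 to 3706 genes in all, 1435 to 2276 higher and 796 to 1430 lower, with 1 to 2 members lower and 1 to 2 higher and 0 to 2 lower in the death receptor pathway; such fits hold fewer samples, and the total moved by over 1.5 times without each library other than siNC replicate 2. The replicate numbers could not be shown to pair the libraries. The deviations of same-numbered libraries correlated by 0.084, 0.102 and 0.124, and those of differently numbered libraries by -0.081 to -0.013. Each library thus correlated best with its own number. With the replicate number as a block, 4568 genes passed, 2773 higher and 1795 lower, BCAT1 was at -2.12, and 3 members were higher and 2 lower, BBC3 being the added one (log2 difference 0.51, adjusted p = 0.0227 from limma, against 0.0226 to 0.776 over its alternatives). With the GC content and length correction and the block together, chosen after seeing the data, BCL2L11 also passed (-0.37, adjusted p = 0.0465 from limma; range 0.0465 to 0.449). TPM values hold no depth, so for the weakly expressed BCL2, BBC3 and BCL2L11 counting error cannot be separated from the spread between libraries.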
